A study of Drosophila melanogaster with 2 samples.

Results

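The strongest peaks far from start sites were the 348 peaks of the main list that combined a high signal with a distant position. They were chosen on signal: each was among the highest 1 in 5 of the 4397 peaks on the chromosome arms by the signal value that the authors deposited, and its summit lay over 500 bp from every annotated transcription start site. Of the 879 strong peaks, 348 were distant and 531 were near a start site. Of the 2534 distant peaks, the other 2186 had a lower signal and are called other distant peaks below. The lowest signal among the strong distant peaks was 213, nearest to Glut4EF, and the highest signal of a distant peak that missed the limit was 211, in JIL-1. The smallest distance to a start site was 503 bp, and the strong peak just inside 500 bp lay 498 bp away, in Dif.

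The peaks came from chromatin immunoprecipitation and sequencing (ChIP-seq) of whole Drosophila melanogaster embryos collected from 0 to 24 h of development. All embryos were of the esg-GFP strain, in which the escargot (esg) protein is fused to eGFP, and an antibody against GFP was used. There were 2 biological replicates of this 1 group, with no second genotype, treatment or time. Whole embryos mix all cell types, the sequence that drives the fusion gene is not given in the sources used here, and no untagged strain was analysed here. Read depth is unknown, so intervals on shares (exact Clopper-Pearson, 95%) cover counting error only, and p-values across peaks describe these libraries.

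Escargot belongs to the Snail family of zinc finger transcription factors, which bind the E-box CAGGTG and often repress their target genes. In the fly it is known for keeping imaginal cells diploid, for tracheal tip cell fate and for maintaining intestinal stem cells. Many fly enhancers lie in introns or between genes, away from the start sites of the genes they act on.

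The windows printed here reach 50 bp to either side of the summit of the 6 strongest peaks outside one arm whose sequence is not printed, followed by the strongest peak that held ACAGTG in such a window. They are RefSeq sequence of the dm6 assembly, plus strand, and each is named by the gene that holds it or, for tara, by the nearest gene. Capitals mark TTAAAA, an AT-only 6-mer, the Snail family E-box CAGGTG, the 6-mer ACAGTG and the 6-mer TTGCAG, on either strand. ACAGTG ranked first by p-value, though not by odds ratio, among the 6-mers more frequent in strong distant peaks than in other distant peaks. TTGCAG ranked first by p-value in the opposite direction without passing (6.61% against 12.49%, and 13.8% of all windows, logistic regression, adjusted p = 0.340, n = 4397 peaks).
CG11050 (chr2L:6612666-6612766): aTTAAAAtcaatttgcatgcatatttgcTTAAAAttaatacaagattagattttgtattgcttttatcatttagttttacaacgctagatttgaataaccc
CG32772 (chrX:4910318-4910418): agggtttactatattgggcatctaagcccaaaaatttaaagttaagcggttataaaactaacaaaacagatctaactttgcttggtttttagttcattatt
Trl (chr3L:14759471-14759571): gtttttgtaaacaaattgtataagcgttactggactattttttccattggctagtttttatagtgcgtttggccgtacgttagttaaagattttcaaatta
tara (chr3R:16222432-16222532): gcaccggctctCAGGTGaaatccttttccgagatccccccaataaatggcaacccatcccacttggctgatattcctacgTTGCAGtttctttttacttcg
Tlk (chrX:3742175-3742275): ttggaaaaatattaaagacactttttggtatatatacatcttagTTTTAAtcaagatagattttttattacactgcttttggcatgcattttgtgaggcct
CG32486 (chr3L:3060746-3060846): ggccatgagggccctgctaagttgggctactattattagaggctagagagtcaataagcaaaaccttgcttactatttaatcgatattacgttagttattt
CG17834 (chr2L:8534870-8534970): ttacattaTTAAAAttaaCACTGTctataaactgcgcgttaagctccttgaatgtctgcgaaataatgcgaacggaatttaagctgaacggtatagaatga
The CAGGTG of the tara window was the only one among the 6 strongest, and none of those 6 windows held ACAGTG within 50 bp of the summit. The GC content of the 6 windows ran from 23.8% in CG11050 to 48.5% at tara.

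A wider view of 125 bp to either side shows the arrangement that recurred. The next windows belong to the 3 strongest peaks outside the same arm with ACAGTG on both sides of the summit at 50 to 125 bp and reading toward the summit on both. This display was chosen after the values were seen. Capitals mark ACAGTG, which appears as CACTGT to the right of the summit because the plus strand is printed. The tara and CG31668 windows lie between genes and are named by the nearest one.
tara, wide (chr3R:16222357-16222607): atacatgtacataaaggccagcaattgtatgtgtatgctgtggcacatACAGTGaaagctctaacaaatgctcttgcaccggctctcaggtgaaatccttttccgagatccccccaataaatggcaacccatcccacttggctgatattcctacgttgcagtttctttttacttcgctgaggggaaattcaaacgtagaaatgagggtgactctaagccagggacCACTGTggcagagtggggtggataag
CG31668, wide (chr2L:2202269-2202519): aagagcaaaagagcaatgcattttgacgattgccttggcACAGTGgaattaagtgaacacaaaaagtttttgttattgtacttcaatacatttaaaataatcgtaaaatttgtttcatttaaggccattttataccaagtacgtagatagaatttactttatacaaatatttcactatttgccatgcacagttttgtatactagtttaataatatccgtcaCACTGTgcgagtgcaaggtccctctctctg
NFAT, wide (chrX:13640394-13640644): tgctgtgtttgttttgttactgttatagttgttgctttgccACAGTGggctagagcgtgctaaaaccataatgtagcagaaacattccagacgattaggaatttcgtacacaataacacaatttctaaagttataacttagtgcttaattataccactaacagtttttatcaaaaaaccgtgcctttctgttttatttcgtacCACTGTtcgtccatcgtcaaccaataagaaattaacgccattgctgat
The GC content of these 3 windows was 46.6% at tara, 32.7% at CG31668 and 35.9% in NFAT. Their signals were 1124, 731 and 729.9. These are high because the windows were picked by signal, so they do not show whether the arrangement goes with signal. NFAT encodes a transcription factor of the NFAT and Rel type.

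The 6-mer ACAGTG was more frequent in the strong distant peaks than in other distant peaks, in windows of 100 bp to either side of the summit. There, 105 of 348 strong distant peaks held it (30.2%, 25.4 to 35.3), against 19.6% of other distant peaks and 20.5% of strong peaks near start sites. Of all 681615 windows of the same length laid end to end along the arms, 7.51% held it. Both comparisons were made by logistic regression across all peaks with GC content as covariate. The difference in ACAGTG from strong peaks near start sites did not pass. Its odds ratio was 1.55 (1.13 to 2.12, adjusted p = 0.0752 over the 23 listed motifs and both comparisons, n = 4397 peaks). When strong distant peaks were compared with other distant peaks, 2 of 2067 6-mers passed (0.0968%). ACAGTG had an odds ratio of 1.78 (1.38 to 2.29, Benjamini-Hochberg adjusted p = 0.0189 over all 6-mers, n = 4397 peaks). The second, CAGTGG, shares the 5 bases CAGTG with it and was held by 23.6% against 14.7%, and by 9.68% of all windows (odds ratio 1.81, 1.37 to 2.40, adjusted p = 0.0324, n = 4397). In windows of 50 bp to either side no 6-mer passed in this comparison, and the differences turned to -2.94 percentage points for ACAGTG and -1.49 for CAGTGG. The first of these had been named in earlier results of these data, so its place is not independent support. Its call was lost in the same binomial fit with the peaks of either replicate alone: the difference of 10.5 percentage points became 7.84 without replicate 1 (adjusted p = 0.597 in the fit of all 6-mers) and 11.9 without replicate 2 (adjusted p = 0.0635).

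The copies of ACAGTG stood in a band on either side of the summit. Among the strong distant peaks there were 1.15 occurrences per 100 peaks within 25 bp of the summit and 2.87 at 25 to 50 bp. The density was then 16.7 at 50 to 75 bp and 18.4 at 75 to 100 bp, 12.4 at 100 to 125 bp and 2.01 at 175 to 200 bp. Other distant peaks had 2.70 within 25 bp and a flatter band, between 7.78 and 8.19 in each step from 50 to 125 bp. Scaled to 100 bp of sequence, the strong distant peaks held 31.6 occurrences per 100 peaks at 50 to 125 bp and 5.55 at 500 to 1000 bp. Strong peaks near start sites had 23.6 at 50 to 125 bp on the same scale, and other distant peaks had 16.0. No test was made of these profiles, which were drawn after the 6-mer had been chosen.

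**Figure D1:**
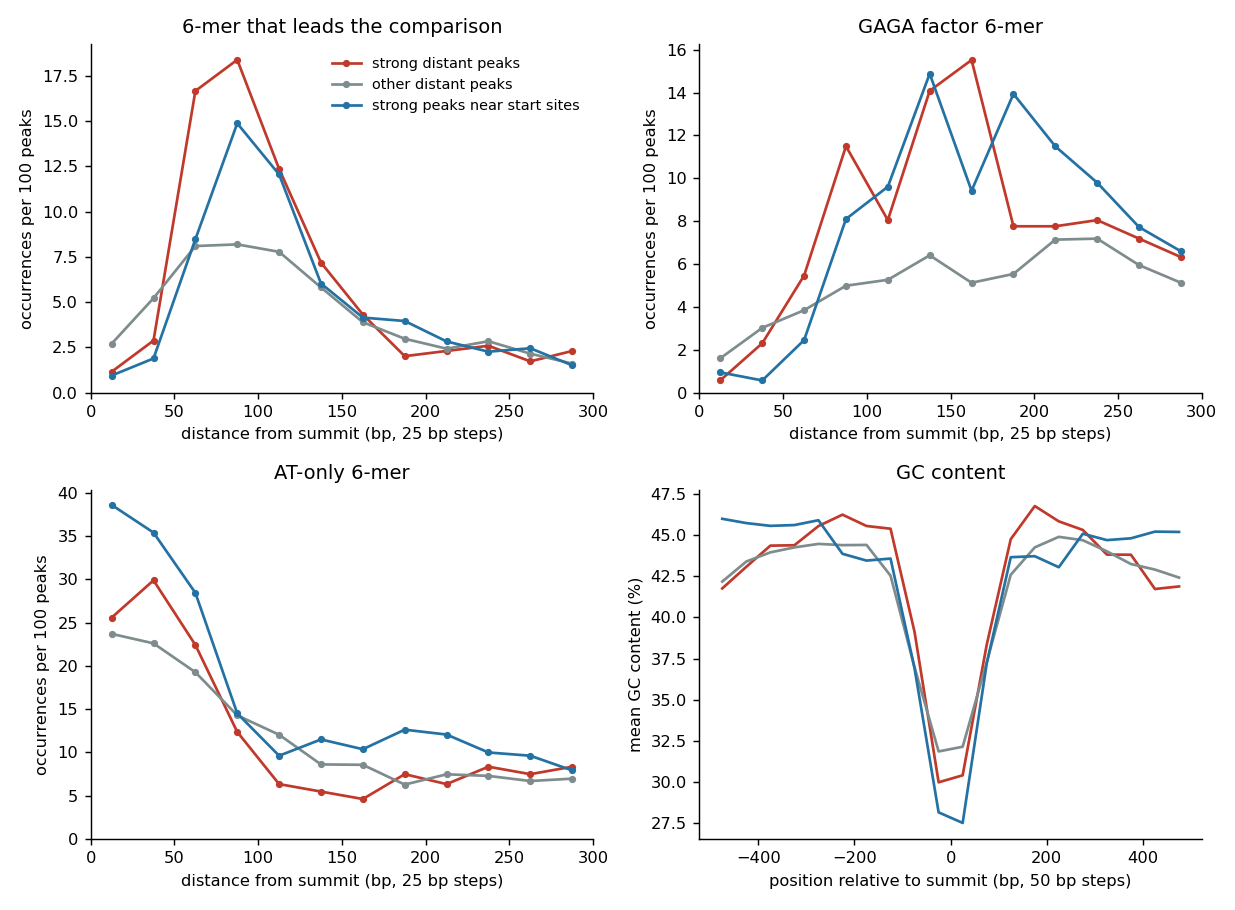
Occurrences per 100 peaks of the 6-mer that led the comparison, the GAGA factor 6-mer and the AT-only 6-mer in 25 bp steps of distance from the summit, both sides together, and mean GC content in 50 bp steps by side. Lines are strong distant peaks (n = 348), other distant peaks (n = 2186) and strong peaks near start sites (n = 531). The leading 6-mer peaked at 18.4 per 100 strong distant peaks at 75 to 100 bp, and GC content was 29.97% in the 50 bp before the summit.

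The 6-mer also had a preferred reading direction. A copy reads toward the summit when the plus strand shows ACAGTG to the left of the summit or CACTGT to the right of it. Of the 165 copies at 50 to 125 bp in strong distant peaks, 141 read toward the summit (85.5%, 79.1 to 90.5) and 24 read away. In other distant peaks the share was 75.9% (72.0 to 79.5, 526 copies), and in strong peaks near start sites it was 79.3% (72.8 to 84.8, 188 copies). At 500 to 1000 bp the strong distant peaks had 93 copies toward the summit and 100 away. Copies of CAGTGG, which overlap those of ACAGTG where both are present, also read mostly toward the summit at 50 to 125 bp, 109 of 125 (87.2%) in strong distant peaks and the same 109 of 125 in strong peaks near start sites. These shares are descriptions, since several copies can share a peak and the direction was examined after the 6-mer was known.

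**Figure D2:**
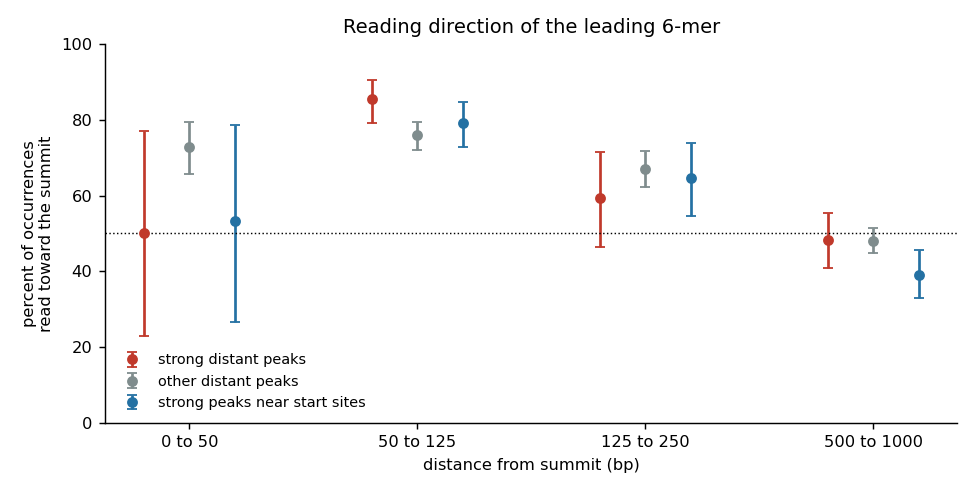
Percent of copies of the leading 6-mer that read toward the summit, by distance from the summit in bp, with exact 95% intervals that cover counting error only. At 50 to 125 bp the strong distant peaks had 85.5%, and at 500 to 1000 bp their interval spanned the dotted line at 50%.

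Copies on both sides of 1 summit were found in a larger share of the strong distant peaks than of the other groups. This arrangement, with a copy at 50 to 125 bp on each side and both reading toward the summit, was sought after the values were seen. It was present in 38 of 348 strong distant peaks (10.9%, 7.84 to 14.7). It was also present in 64 other distant peaks (2.93%, 2.26 to 3.72), in 33 strong peaks near start sites (6.21%, 4.32 to 8.62) and in 10 weaker peaks near start sites (0.751%). The band was also present around the summits of each replicate's own list. Around the summits of the overlapping replicate 1 peaks, there were 30.3 occurrences per 100 peaks and 100 bp at 50 to 125 bp, with 86.1% toward the summit. The replicate 2 summits gave 31.1 and 84.6%. These summits lay a median of 8 bp (replicate 1) and 6 bp (replicate 2) from those of the main list, and the lists share reads.

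Bases beside ACAGTG differed with distance as well. Within 100 bp of the summits of strong distant peaks there were 134 copies, and 58.2% were followed by G, against 40.4% of the 193 copies at 500 to 1000 bp. G stood at 2 bases before the 6-mer in 54.5% near the summit and 30.1% far from it. The base directly before it was C in 41.8% and T in 35.1% near the summit. In other distant peaks the same positions had 47.7% G after the 6-mer and 46.5% G at 2 bases before it. At least 2 copies within 100 bp were present in 25 strong distant peaks (7.18%, 4.70 to 10.4) and in 4.03% of other distant peaks. Of the 174 strong distant peaks of higher signal 36.2% held the 6-mer, and of the 174 of lower signal 24.1% did, a description because signal chose the peaks.

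The centres were rich in A and T. Mean GC content in the strong distant peaks was 29.97% and 30.4% in the 50 bp on either side of the summit, and 45.4% and 44.8% at 100 to 150 bp. The dip was not particular to them. In the same 50 bp, other distant peaks had 31.8% and 32.1%, and strong peaks near start sites 28.1% and 27.5%. Over 100 bp to either side the mean of strong distant peaks was 34.5% ± 6.49 (SD, n = 348), and other distant peaks had 34.6% (difference -0.0751 percentage points, -0.828 to 0.677, least squares, adjusted p = 0.966, n = 2534). TTAAAA had 29.9 occurrences per 100 strong distant peaks at 25 to 50 bp and 6.32 at 100 to 125 bp, the reverse of the ACAGTG profile. Within 100 bp it was held by 52.9% of strong distant peaks, 49.9% of other distant peaks 63.7% of strong peaks near start sites and 29.2% of all windows. Neither difference passed (adjusted p = 0.563 and 0.457, n = 4397). Peak width moved with the groups. It had a median of 188.5 bp in strong distant peaks, 216 bp in strong peaks near start sites and 336 bp, the value of both quartiles as well, in other distant peaks. Its part in the sharper band of ACAGTG was not tested.

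The GAGA element, the site of the GAGA factor encoded by Trl, lay further out. GAGAGA had 0.575 occurrences per 100 strong distant peaks within 25 bp of the summit, 14.1 at 125 to 150 bp and 15.5 at 150 to 175 bp, with overlapping matches counted singly. In other distant peaks the last step had 5.12. At 125 to 250 bp 84 strong distant peaks held it (24.1%), against 16.6% of other distant peaks and 24.5% of strong peaks near start sites. Of all windows of the length used above, 7.02% held it. The shorter form GAGAG within 100 bp did not separate the groups, at 22.4% against 20.5%, with 21.6% of all windows (odds ratio 1.12, 0.853 to 1.48, adjusted p = 0.753, n = 4397).

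Of the 23 listed motifs, 1 passed against other distant peaks (4.35%), which was ACAGTG itself. It had been named in earlier results of these data, so this call is not independent support. No other listed motif passed in that comparison. Against strong peaks near start sites 2 passed (8.7%). Those 2 were lower in the strong distant peaks, in a comparison of groups that the rule itself set apart by distance to a start site. Neither passed against other distant peaks, of which 0.274% held TATCGATA and 5.12% held CAGCTG. There the adjusted p was 0.530 for both (likelihood-ratio test for TATCGATA, logistic regression for CAGCTG, n = 4397), so neither was shown to be particular to the strong distant peaks. The DNA replication-related element TATCGATA, a core promoter element, was found in 0 of 348 strong distant peaks, which allows a share of up to 0.862% by a limit of 3 counts and 1.05% by the exact 95% interval, and in 3.77% of strong peaks near start sites and 0.568% of all windows (likelihood-ratio test, adjusted p = 0.000141 over the 23 motifs and both comparisons, n = 4397). CAGCTG, the E-box of proneural proteins, was present in 3.45% against 7.72%, and in 8.33% of all windows (odds ratio 0.349, 0.180 to 0.678, adjusted p = 0.0290, n = 4397). Adjusted over all 6-mers in place of the listed motifs, the same difference in CAGCTG did not pass (adjusted p = 0.327, n = 4397). In windows of 50 bp to either side it turned from -4.27 to 0.0292 percentage points, and its call was lost under 6 other choices as well (adjusted p from 0.0565 to 0.252 in the binomial fit). The TATCGATA call of this binomial model was lost in the highest 1 in 10 by signal (adjusted p = 0.128) and in windows of 50 bp to either side (adjusted p = 0.687). Of the 2067 6-mers, 0 passed against strong peaks near start sites in the logistic regression (0%), and 161 had an unadjusted p under 0.05. The 6-mer ranked first there was CACTGA, with 23.3% against 12.6%, and 8.21% of all windows (adjusted p = 0.125, n = 4397). Its other strand, TCAGTG, also holds CAGTG and the initiator core TCAGT. At 50 to 125 bp 85 of its 92 copies in strong distant peaks read CACTGA toward the summit, so its CAGTG pointed away, whereas that of ACAGTG pointed toward it. CAGTG alone had 173 of 345 copies toward the summit there (50.1%).

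Few strong distant peaks held the E-box of the Snail family. CAGGTG occurred within 100 bp in 26 of 348 (7.47%, 4.94 to 10.8), in 5.22% of other distant peaks and in 2.82% of strong peaks near start sites. The window share over all arms was 7.81%. The odds ratio was 1.48 against other distant peaks (0.945 to 2.31, adjusted p = 0.457) and 2.35 against strong peaks near start sites (1.22 to 4.53, adjusted p = 0.0973, n = 4397 in both), so neither passed. Without the GC covariate the second difference, 4.65 percentage points, passed (adjusted p = 0.0192, n = 4397). All 8 copies within 50 bp of a summit read toward it (100%, 63.1 to 100), and 12 of 25 did so at 50 to 125 bp. Within 50 bp, 34 of 64 copies did so in other distant peaks (53.1%) and 3 of 5 in strong peaks near start sites. The direction of these few copies was not tested. The Zelda site CAGGTAG was present in 2 strong distant peaks (0.575%), against 0.915% of other distant peaks and 1.09% of all windows. The Sox site AACAAT was present in 87 strong distant peaks, beside 23.9% of other distant peaks, the GATA site AGATAA in 16.1% against 15.3% and the homeodomain core TAATTA in 17.2% against 18.5%. None of these 4 differences passed (adjusted p from 0.809 to 0.850, n = 4397).

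**Figure D3:**
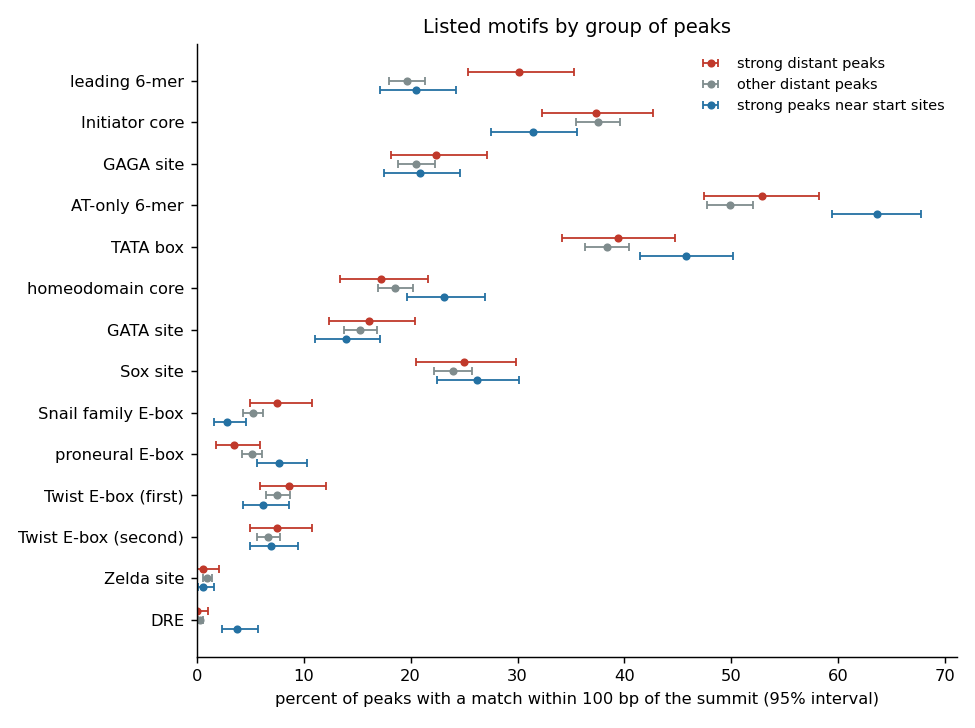
Percent of peaks with a match of 14 of the listed motifs within 100 bp of the summit, with exact 95% intervals, for strong distant peaks (n = 348), other distant peaks (n = 2186) and strong peaks near start sites (n = 531). The leading 6-mer stands at 30.2% in strong distant peaks, and the DNA replication-related element (DRE) at 0%.

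Most strong distant peaks lay in introns. The summit base was intronic in 258 of 348 (74.1%, 69.2 to 78.7), intergenic in 75 (21.6%), and in an exon in 15, of which 1 was coding. Of 7 site features, 3 passed against other distant peaks (42.9%). Intronic summits were more frequent, at 74.1% against 67.8% (odds ratio 1.36, 1.05 to 1.76, adjusted p = 0.0442, n = 2534 distant peaks), a call that was lost under each of the 7 other choices of peaks or start sites (adjusted p from 0.0753 to 0.574). Summits within 2000 bp of a start site made up 48.9% against 39.4% (odds ratio 1.47, 1.17 to 1.84, adjusted p = 0.00657, n = 2534, and 0.217 among peaks over 1000 bp from every start site). Another peak of the list lay within 2000 bp of 43.7% against 35.7% (odds ratio 1.40, 1.11 to 1.76, adjusted p = 0.0146, n = 2534, and 0.889 in the other thresholded list). The X held 88 (25.3%) against 21.4% of other distant peaks (adjusted p = 0.176, n = 2534), 3L held 78, 2L held 67, 2R held 63 and 3R held 52. A summit in an annotated transposable element occurred in 1 strong distant peak.

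The distance to the nearest start site had a median of 2116.5 bp and reached 42285 bp in mamo, against a median of 2927.5 bp for other distant peaks. Beyond 10000 bp there were 29 (8.33%) against 14.1%. In the RefSeq annotation 0 strong distant peaks had a start site within 500 bp. The same held for 0 of 2186 other distant peaks, and 531 of 531 strong peaks near start sites had one. At this limit both annotations sorted these peaks alike, so this restates the distance rule. The nearest start site belonged to a protein-coding gene in 84.2% of cases, against 80.5% of other distant peaks. The body of the nearest protein-coding gene held the summit in 226 of 348 (64.9%, 59.7 to 70.0), against 54.8% of other distant peaks, a difference that was not tested. A start site of the nearest gene carried a summit of its own, within 500 bp, in 103 cases (29.6%), against 25.5% of other distant peaks.

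Both replicates held every strong distant peak. All 348 overlapped a thresholded peak of replicate 1 and one of replicate 2 by at least 1 bp, and all had the highest listed reproducibility value, a −log10 IDR of 5. This goes with selection on signal: of the strong peaks near start sites 99.8% overlapped both lists, and of other distant peaks 45.6% did. Signal in replicate 1 ran from 82.2 to 897 with a median of 155, and in replicate 2 from 84.2 to 953 with a median of 145. Replicate 1 was the higher in 208 of 348, and the median log2 ratio was 0.06, within a range of -1.28 to 0.85. The Spearman correlation was 0.786 across the 348 peaks, which share the same 2 libraries and were selected on signal. By each replicate's own list, 222 were in the highest 1 in 5 of replicate 1 and 256 in that of replicate 2.

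**Figure D4:**
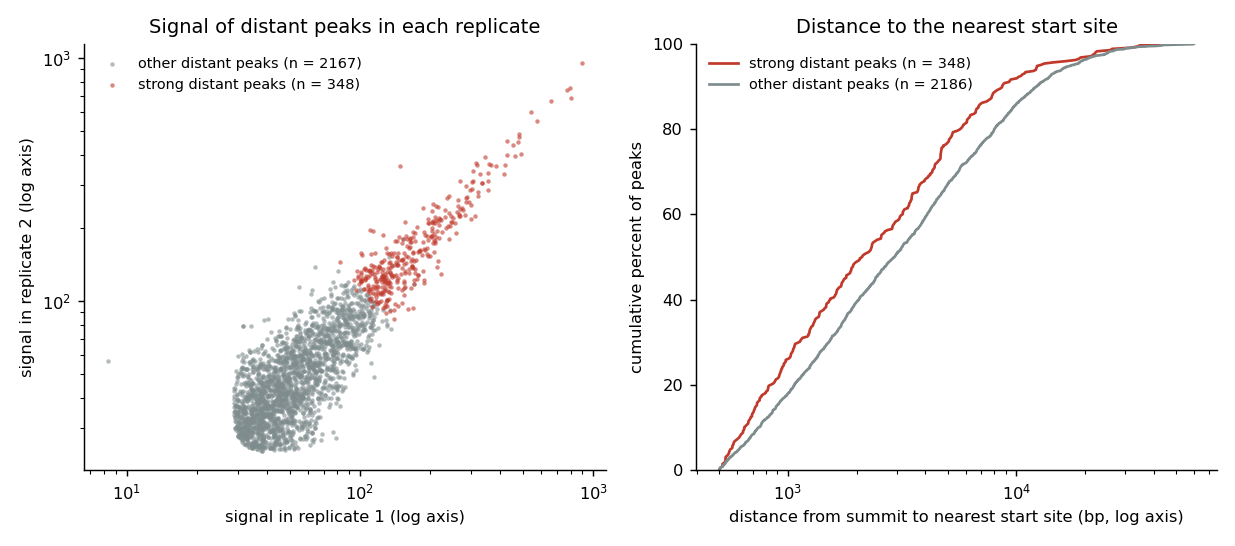
Left, signal of distant peaks in replicate 1 and replicate 2 on log axes. Right, cumulative percent of distant peaks by distance to the nearest start site in bp on a log axis. Strong distant peaks (n = 348) reach 897 and 953 in the replicates, and 48.9% of them have a start site within 2000 bp, against 39.4% for other distant peaks.

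Of the 31 peaks with a signal over 1000, 7 were distant, beside 348 of all 879 strong peaks and 2534 of all 4397 peaks. Of these 7, 5 lay in introns, beside 74.1% of all strong distant peaks. The first, in an intron of CG11050 at chr2L:6612549-6612876, had 897 in replicate 1 and 953 in replicate 2. The second lay 11914 bp from CG13323, between genes, with 798 and 754. The third, in an intron shared by HmgD and HmgZ, which encode HMG-box chromatin proteins, had 771 and 741. Replicate 1 was lower at the first and higher at the other two. Adf1, which encodes a MADF-domain transcription factor, had 805 and 689 in its intron. CG32772 had 657 and 669. Trl had 543 and 603 in an intron 1528 bp from a start site, and tara, which encodes a transcriptional co-regulator, had 576 and 553 at a site 3169 bp upstream of it.

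The other 13 of the 20 strongest had main-list signals from 730 to 969. They were nearest to Tlk, CG16753 (inside CG32486), CG12769, chinmo, osa, norpA, Hr3, CG3726, CG9663, CG9837, chif, CG31668 and NFAT. Tlk encodes Tousled-like kinase, which acts in chromatin assembly, osa a subunit of the Brahma remodelling complex, and norpA the phospholipase C of phototransduction. Hr3 encodes a nuclear receptor induced by ecdysone, and chif the fly relative of Dbf4. The Hr3 peak had 463 in replicate 1 and 398 in replicate 2, and the osa peak 490 and 402.

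Over the genome, 301 of 13968 protein-coding genes had at least 1 strong distant peak nearest to them (2.15%), and 238 held one in their body. Of the 301, 267 had 1, 25 had 2 and 9 had 3 or more. Tlk had 5, all in its introns, with signals of 969, 304, 283, 244 and 221. CHES-1-like, a forkhead gene, had 4 with signals from 258 to 636. Raf, which encodes the kinase that receptor tyrosine kinases activate through Ras, had 4 from 220 to 621, 3 of them intronic. These 3 genes and Hr4 lie on the X, which held 25.3% of all strong distant peaks and 21.4% of other distant peaks. Counting peaks of any strength, Tlk had 10, CHES-1-like 14, Raf 7 and Hr4 9. The other genes with 3 or more strong distant peaks had from 3 (babos) to 13 (CG43245).

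The gene chinmo, which encodes a BTB zinc finger protein of temporal identity in neuroblast lineages, had 3 strong distant peaks. All lay upstream and between genes, at 7825, 12472 and 18420 bp, with signals of 575, 890 and 680. Their values in replicate 1 were 269, 426 and 314, and in replicate 2 they were 313, 458 and 371, so replicate 2 was higher at all 3. The 5 weaker peaks of chinmo had main-list signals from 10.2 to 174. Hr4, a nuclear receptor gene of the ecdysone response, had 3 in introns with signals of 513, 336 and 300. The remaining genes with 3 were CG7560, CG43245, sick and babos, with highest signals of 664, 516, 442 and 288.

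**Figure D5:**
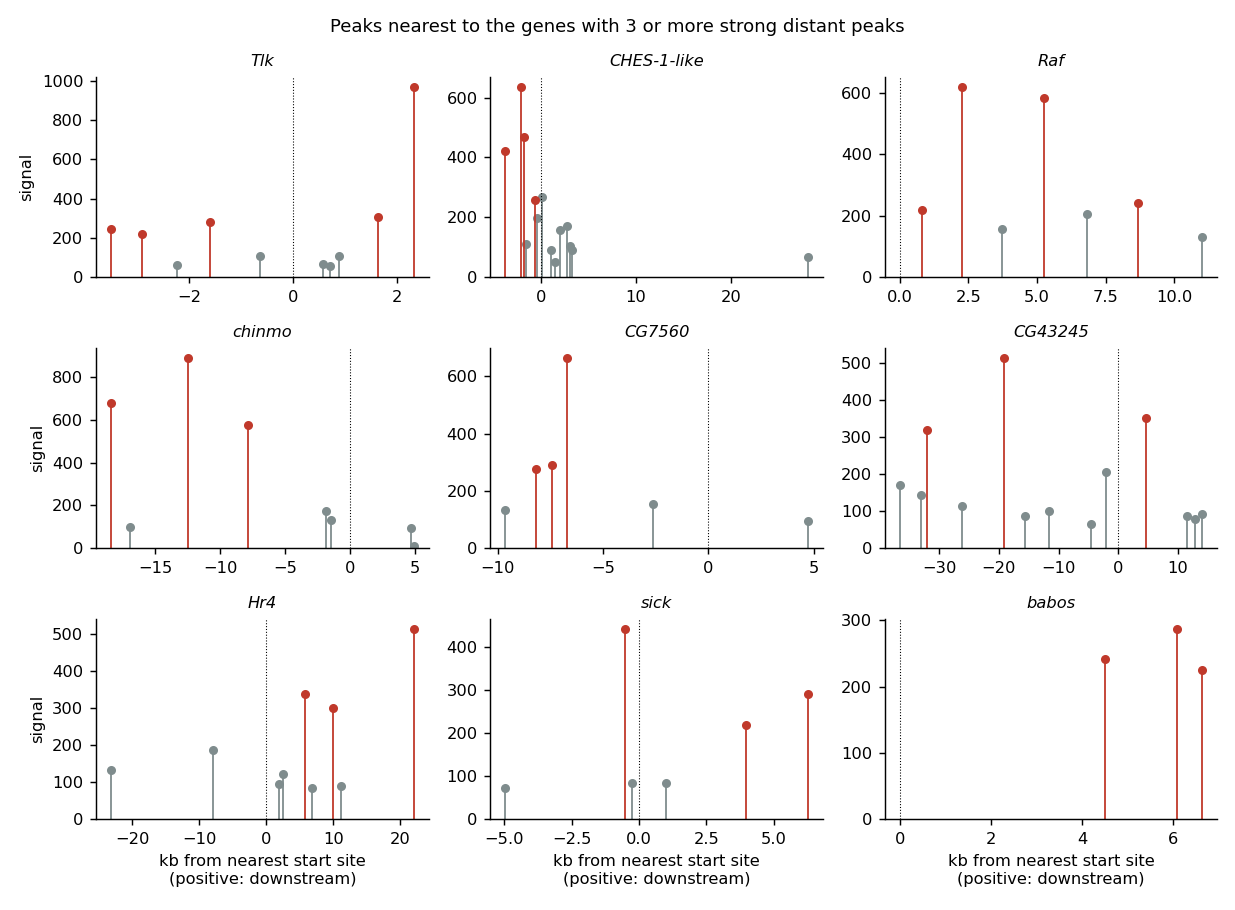
Signal of every peak of the main list nearest to the 9 genes with 3 or more strong distant peaks, by kb from the nearest start site of that gene (positive values downstream). Red marks strong distant peaks and grey all other peaks, of which some lie near a start site. Tlk has 5 red peaks up to a signal of 969, and the 3 of chinmo are all upstream.

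Gene lists were read as counts beside the 2.15% of all protein-coding genes, with no test, since the lists were drawn up with earlier results known. A closer background is the 10.6% of protein-coding genes that were nearest to any distant peak, strong or not. By that measure the counts were 7 of 22 Polycomb and trithorax group genes, 6 of 25 neuroblast factors and 10 of 15 ecdysone response genes. They were 8 of 16 mesoderm regulators and 15 of 28 signalling genes. Of all 1483 genes nearest to any distant peak, 301 were nearest to a strong one. Within the lists just named, these were 5 of 7 Polycomb and trithorax group genes and 4 of 6 neuroblast factors. They were 3 of 10 ecdysone response genes, 3 of 8 mesoderm regulators and 2 of 15 signalling genes. No list was tested, so a high count below is not shown to be particular to the strong distant peaks. Of the Polycomb and trithorax group genes 5 of 22 were nearest to a strong distant peak, with highest signals of 1147 at Trl, 889 at osa and 346 at Psc. Of the neuroblast factors 4 of 25 were, led by chinmo, by brat (552), a translational repressor that limits neuroblast self-renewal, and by SoxN (250), an early neural Sox gene. Of the ecdysone response genes 3 of 15 were: Hr3 (871), Hr4 (513) and E23 (216), an ABC transporter gene. Mesoderm regulators had 3 of 16, namely Doc2 (326), a T-box gene, ths (283), an FGF ligand gene, and bin (216), a forkhead gene. Tracheal genes had 2 of 10, vvl with 2 peaks of 244 and 231 and rib with 233, both transcription factor genes.

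Adhesion and polarity genes had 3 of 20, with ed (244), baz (229) and Fas3 (224), and axon guidance genes 3 of 28, with Sema1a (299.7), sli (236) and Fas3. Of the gut stem cell and JAK/STAT genes 2 of 19 were counted, Stat92E (250.3), the transcription factor of the pathway, and ed. Signalling genes had 2 of 28, the Hedgehog receptor gene ptc (268) and the BMP gene dpp (268). HMG-box genes had 1 of 8 (HmgZ), the cell cycle 1 of 20 (CycB, 682), the Notch pathway 1 of 17 (neur, 363) and gap and pair-rule genes 1 of 17 (slp2, 408). No strong distant peak was nearest to any of the 6 Snail and Scratch family genes, which include esg, the 8 Hox genes or the 10 proneural genes. With a share of 2.15% over all genes, lists this small would often have 0. Any distant peak, strong or not, was nearest to 1 of the 6, 5 of the 8 and 0 of the 10.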

How the data were processed

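ChIP-seq peaks of 2 replicates were used as deposited on dm6, made by the authors from replicate alignments and a control alignment, per the deposited descriptions. Neither the aligner nor the peak caller is given in the sources used here. The deposited signal values per peak have no stated scale, and the −log10 IDR (irreproducible discovery rate) values were also deposited by the authors. The main list was the conservative thresholded list, in which both replicates entered together, and 8 columns of per-sample values were not used. Start sites and genes came from Ensembl release 115 (BDGP 6.54), transposable elements left out, and sequence from RefSeq with the same arm lengths. Members and lists were chosen with earlier results of these data known.

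Motif presence, on either strand within 100 bp of the summit, was fitted over 4397 peaks by logistic regression on strong, distant, their product, GC content and its square. Wald p-values were Benjamini-Hochberg adjusted over 23 motifs and both comparisons (46 p-values), or over 2067 6-mers present in at least 1% of peaks, with a threshold of 0.05. The likelihood-ratio test was used where a group had no match. The fits were tested on simulated data. Besides motifs named in the results, those searched were the Twist E-boxes CATATG and its variant CACATG, the repeat CACACACA, the promoter motif 1 GGTCACAC, the TATA box TATAAA, the STAT site TTCNNNGAA, the TCF site CTTTGAT, the Su(H) site TGGGAA, the forkhead site TGTTTAC, the octamer ATGCAAAT, the Caudal site TTTATG and the Tramtrack site AGGAT. Some of them overlap, since the GAGA site lies within the longer GAGA 6-mer and the Zelda site shares its first bases with the Snail family E-box. Genes named were those nearest to the 20 strongest peaks, those nearest to 3 or more, and up to 3 per list by signal. Versions were scipy 1.17.1 and numpy 2.4.6 under Python 3.11.15, with pandas 2.3.3 and matplotlib 3.10.9.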

Additional observations from a re-analysis of the deposited data

How the results depend on the processing

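No paired analysis was possible because the series has 1 group. In windows of 50 bp to either side, the differences against other distant peaks turned to -2.94 percentage points for ACAGTG (adjusted p = 0.687 over listed motifs and 0.958 over 6-mers, n = 4397 peaks) and -1.49 for CAGTGG. That of CAGCTG against strong peaks near start sites turned to 0.0292. Calls there were 0 listed motifs and 0 6-mers against other distant peaks, and 0 listed motifs and 1 6-mer against strong peaks near start sites. The highest 1 in 10 by signal left 151 peaks and 138 genes, with 6 6-mers called against other distant peaks and 0 listed motifs against strong peaks near start sites. Over 1000 bp from every start site, 1 6-mer was called in each comparison and 0 site features. The other thresholded list gave 4 6-mers against other distant peaks and 1 site feature. Against strong peaks near start sites, 1 listed motif was called with protein-coding start sites only and with overlapping peaks reduced to the strongest, and 4 without the GC covariate. When the overlap had to cover 50% of each peak, 71.0% overlapped both replicate lists in place of 100%. With the list of 1 replicate alone, the peaks numbered 222 to 260, the nearest genes 197 to 227, the listed motifs called against other distant peaks 0 to 2 and the 6-mers 0 to 1. Of the other values of single motifs and features, 110 kept their direction and side of the threshold, 24 no longer passed and 4 passed only in the alternative. The calls of CAGCTG and of intronic summits were among those lost most often, and the cause was not tested. Depth is unknown, and signal scale and summit placement were those of the authors.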
